A study of Mus musculus with 6 samples.

Results

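The genes described here make or hold retinoic acid, and they were chosen by name as all probes on the array that carry the symbol Rdh10, Adh1, Adh7, Aldh1a1, Aldh1a2, Aldh1a3, Aldh1a7, Crabp1 or Crabp2. The 9 genes had 1 probe each, out of 55681 probes and 23411 named genes. Of the symbols, 7 denote dehydrogenases, and Crabp1 and Crabp2 encode binding proteins with no dehydrogenase activity. All 9 genes were well above background on at least 1 array, as were 17293 named genes in all, which are the genes tested. Expression was measured in mouse embryonic fibroblasts (MEFs) labelled as ICR strain, connective tissue cells grown from embryos and kept in serum-containing medium. The cells were wild type, Clk/Clk (Clock mutant by the series design) or Per2m/m, and each genotype was either mock-transfected or given a vector for H-Ras and SV40T, so that there were 6 groups of 1 array each. H-Ras is a small GTPase that is an oncogene when activated, and the T antigen of SV40 is known to inactivate p53 and the RB family. For the transfected Per2m/m cells SV40 is absent from the source name but present in the title, and whether the same vector was used there was not tested. The labels give no embryo, passage or clone, and no group had replicates.

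Retinoic acid is made from vitamin A in successive oxidations. Retinol is first turned into retinaldehyde, by membrane-bound retinol dehydrogenases such as RDH10 and by cytosolic alcohol dehydrogenases such as ADH1 and ADH7. Retinaldehyde is then oxidised irreversibly to retinoic acid by ALDH1A1, ALDH1A2 and ALDH1A3, while ALDH1A7 is a close relative of ALDH1A1 with little known activity on retinaldehyde. Retinoic acid is held in the cytosol by CRABP1 and CRABP2, and acts in the nucleus through the receptors RAR and RXR. In embryonic mesenchyme the pathway is known for patterning tissues.

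Upstream sequence is shown for the gene pairs and motifs that the results below refer to, from RefSeq on build GRCm38.p6, which held promoter entries for 6 of the 9 genes. Aldh1a1 and Aldh1a7 lie beside each other on chromosome 19 with no annotated gene between them, and both had lower levels after transfection. Of the 100 bases before the start, 94 were identical in the pair without gaps, against 21 of 100 for Adh1 and Adh7, which are neighbours on chromosome 3. Over all 250 bases before the start of Aldh1a1 and Aldh1a7, 129 were identical, and in the 150 furthest from it 35 were. Of the 2 annotated Aldh1a1 starts, the one with more bases identical to Aldh1a7 was used. The longest shared run, 65 bases, is in capitals in the 120 bases before each start (chr19:20601848-20601967 on the plus strand for the second of 2 annotated Aldh1a1 starts, and chr19:20727557-20727676 on the minus strand).
Aldh1a1: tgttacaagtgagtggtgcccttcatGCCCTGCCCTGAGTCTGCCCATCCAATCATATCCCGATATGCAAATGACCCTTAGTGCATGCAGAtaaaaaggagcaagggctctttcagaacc
Aldh1a7: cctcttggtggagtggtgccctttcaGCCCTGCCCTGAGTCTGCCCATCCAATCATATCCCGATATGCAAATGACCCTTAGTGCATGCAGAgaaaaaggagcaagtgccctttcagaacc
The run holds the octamer ATGCAAAT, chosen after the sequences were seen, which 1.60% of 32851 promoters had in the same 250 bases on either strand and 3 of the 7 windows of these genes had (Aldh1a1, Aldh1a7 and Aldh1a2).

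Motifs were searched on both strands in the window from 250 bases before to 50 after each start. The E-box CACGTG, to which CLOCK and BMAL1 bind, was found in 1 of the 7 windows, that of Adh1, beginning 4 bases after the start base, against 7.15% of all promoters. It is shown in capitals in 30 bases at chr3:138277577-138277606 (plus strand).
Adh1: aaagggccagatCACGTGtgggatcagctg
The antioxidant element TGACNNNGC was found in Aldh1a2 alone among the 7 windows, against 12.4% of all promoters, and is in capitals at chr9:71215656-71215705 (plus strand).
Aldh1a2: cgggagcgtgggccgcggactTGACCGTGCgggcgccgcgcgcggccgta
The xenobiotic element GCGTG was found in 3 of 7 windows, of Adh7, Crabp1 and Aldh1a2, against 32.4% of promoters. The half-site AGGTCA was found in 0 of 7 windows (16.3% of promoters), as were its direct repeats spaced by 1, 2 or 5 bases, which 0.0396%, 0.00913% and 0.00913% of promoters held. A repeat match also counts as a half-site match.

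Each probe has 60 bases, placed by the array's design on build mm9. The Rdh10 probe lies on chromosome 1, 16122062 to 16122121, and those of Adh1 and Adh7 on chromosome 3, at 137952821 to 137952880 and 137894495 to 137894554. Aldh1a1 is read at chromosome 19, 20717764 to 20717823, and Aldh1a7 49.8 kb away at 20767553 to 20767612. Aldh1a2 is read at chromosome 9, 71143931 to 71143990, Aldh1a3 at chromosome 7, 73535785 to 73535844, Crabp1 at chromosome 9, 54616192 to 54616251, and Crabp2 at chromosome 3, 87757207 to 87757266. The files place each within the gene's RefSeq transcript, and the sources used here do not give whether a probe lies in coding sequence or a UTR. The first 30 bases of the Aldh1a1 and Aldh1a7 probes are shown because these close relatives could share signal.
Aldh1a1 probe: gactagttgtgacttaagctctgtccctca
Aldh1a7 probe: ttccttgaactatgtaccatgcatgataac
Over all ungapped alignments of the whole probes, the best match had 21 identical bases of 51 aligned, with a longest shared run of 8. Binding of either probe to the other transcript was not tested.

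A level below is the log2 ratio of a probe's processed signal to the 75th percentile of such signals on its array. A response is the level with the vector minus the level without it in 1 genotype. Values after ± are the scanner software's own error of the spot, carried to the difference where a difference is given. They cover spot noise only and not the spread between cultures, which was not measured. A difference of at least 2-fold whose brighter array was well above background is called a 2-fold difference, which is a rule of size and not a test. Where the dimmer array was not well above background, its level was compared with the lowest level of any probe well above background there. If the dimmer level was lower, that lowest level replaced it and the fold is given as "at least". If it was not lower, as for Aldh1a1 on the transfected wild type array, the fold is as measured and is not a bound. In bulk RNA, fewer cells of a type and less RNA per cell cannot be told apart.

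The 6 arrays had 59305 spots each that were not controls, with 49.3% to 57.3% well above background and 0 saturated. The transfected Per2m/m array stood apart, with the lowest share well above background and correlations of 0.922 to 0.942 with the other arrays, which correlated among themselves at 0.960 to 0.984. Xist, Ddx3y and Eif2s3y had signal well above background in mock Per2m/m cells and not in the transfected ones, where they were at least 16.7-fold, 23.3-fold and 13.8-fold lower, so these 2 cultures differed in sex-linked RNA as well as in the vector. Xist was also not well above background on either Clk/Clk array and was on both wild type arrays (−1.02 and −0.95), so each comparison of Clk/Clk with wild type cells holds a difference in Xist. Every Per2m/m response below rests on that array. Of 11 fibroblast markers, all 11 were well above background on 4 arrays, and 9 on the transfected wild type and Per2m/m arrays, where Lum and Fap were not. Macrophage markers were well above background in 9 and 10 of 10 on the mock wild type and Per2m/m arrays and in 5 to 6 of 10 on the other 4 arrays.

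Of the retinol step, Adh7 was higher after transfection in each genotype, Rdh10 was 2-fold higher in Per2m/m cells only, and Adh1 was lower in wild type cells. Rdh10, the membrane-bound retinol dehydrogenase of the embryo, had levels of −1.25 (wild type), −1.45 (Clk/Clk) and −1.26 (Per2m/m) without the vector, and −1.07, −1.04 and 2.26 with it. The transfected Per2m/m array alone was high, and the other 5 lay between −1.45 and −1.04. The responses were 0.18 ± 0.21 (wild type), 0.40 ± 0.21 (Clk/Clk) and 3.52 ± 0.21 (Per2m/m), the last an 11.4-fold ratio. In the additive limma fit of genotype and transfection, the coefficient for transfection was 1.37 ± 0.81 (SE, adjusted p = 0.696), and without the transfected Per2m/m array it was 0.29 ± 0.29 (adjusted p = 0.938).

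Adh7, a class IV alcohol dehydrogenase best known from epithelia and active on retinol, was higher after transfection in all 3 genotypes. Its levels were −4.18 (wild type), −3.37 (Clk/Clk) and −4.06 (Per2m/m) without the vector, and −2.54, −2.17 and 0.59 with it. The 3 transfected arrays lay above the 3 mock arrays with no overlap, as did those of Rdh10, against 6.59% of all genes tested. For Rdh10 the gap was that between the 2 wild type arrays, 0.18 ± 0.21, which is within the spot error. The Adh7 responses were 1.64 ± 0.25, 1.20 ± 0.25 and 4.65 ± 0.26, or 3.11-fold, 2.30-fold and 25.2-fold. Normexp background correction, which draws dim signals together, was run here with an offset of 50 added to the signals. The processed Adh7 signals without the vector were 27.1 (wild type), 36.6 (Clk/Clk) and 32.3 (Per2m/m). With normexp the wild type and Clk/Clk responses fell below 2-fold, at 0.67 and 0.64, while that in Per2m/m cells was 3.21. The part of the offset in this was not tested. The limma coefficient for transfection was 2.50 ± 0.82 (adjusted p = 0.696, unadjusted p = 0.0407), and 1.42 ± 0.31 (adjusted p = 0.936) without the transfected Per2m/m array. With normexp it was 1.51 ± 0.59 (adjusted p = 0.706).

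Some epithelial markers were high on the transfected Per2m/m array together with Rdh10 and Adh7. The summed signal of the list, relative to the 75th percentile, was 6.85 there against 0.568 to 1.26 on the other arrays. Of the 9 measured epithelial genes, 8 were well above background on that array and 6 on each other array. The sum was mostly that of the keratin Krt14, at a level of 2.57 there against −4.12 to −3.30 elsewhere. Cdh1, the epithelial cadherin, and Krt8 were well above background on that array alone, at −3.29 and −2.60, while Krt18 was not well above background there. Krt5, Cldn4, Cldn7 and Esrp1 had levels of −3.74, −4.29, −2.20 and −2.71 there, against −3.59, −4.40, −2.06 and −2.77 in mock Per2m/m cells. In mock wild type cells their levels were −4.36, −4.09, −2.20 and −3.29. The part of such cells in the Rdh10 and Adh7 values was not tested.

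Adh1, the class I alcohol dehydrogenase that also clears excess retinol, did not follow its neighbour Adh7. Its levels were −1.78 (wild type), 0.23 (Clk/Clk) and −2.17 (Per2m/m) without the vector, and −7.07, 0.36 and −3.10 with it. The transfected wild type array was the low one, where Adh1 was not well above background, and both Clk/Clk arrays were the highest. Adh1 was thus at least 12.9-fold lower with the vector in wild type cells. Its response was 0.14 ± 0.20 in Clk/Clk cells, and that of −0.94 ± 0.25 in Per2m/m cells was just short of 2-fold, at 1.91-fold lower. The probes of Adh1 and Adh7 lie 58.3 kb apart.

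**Figure D1:**
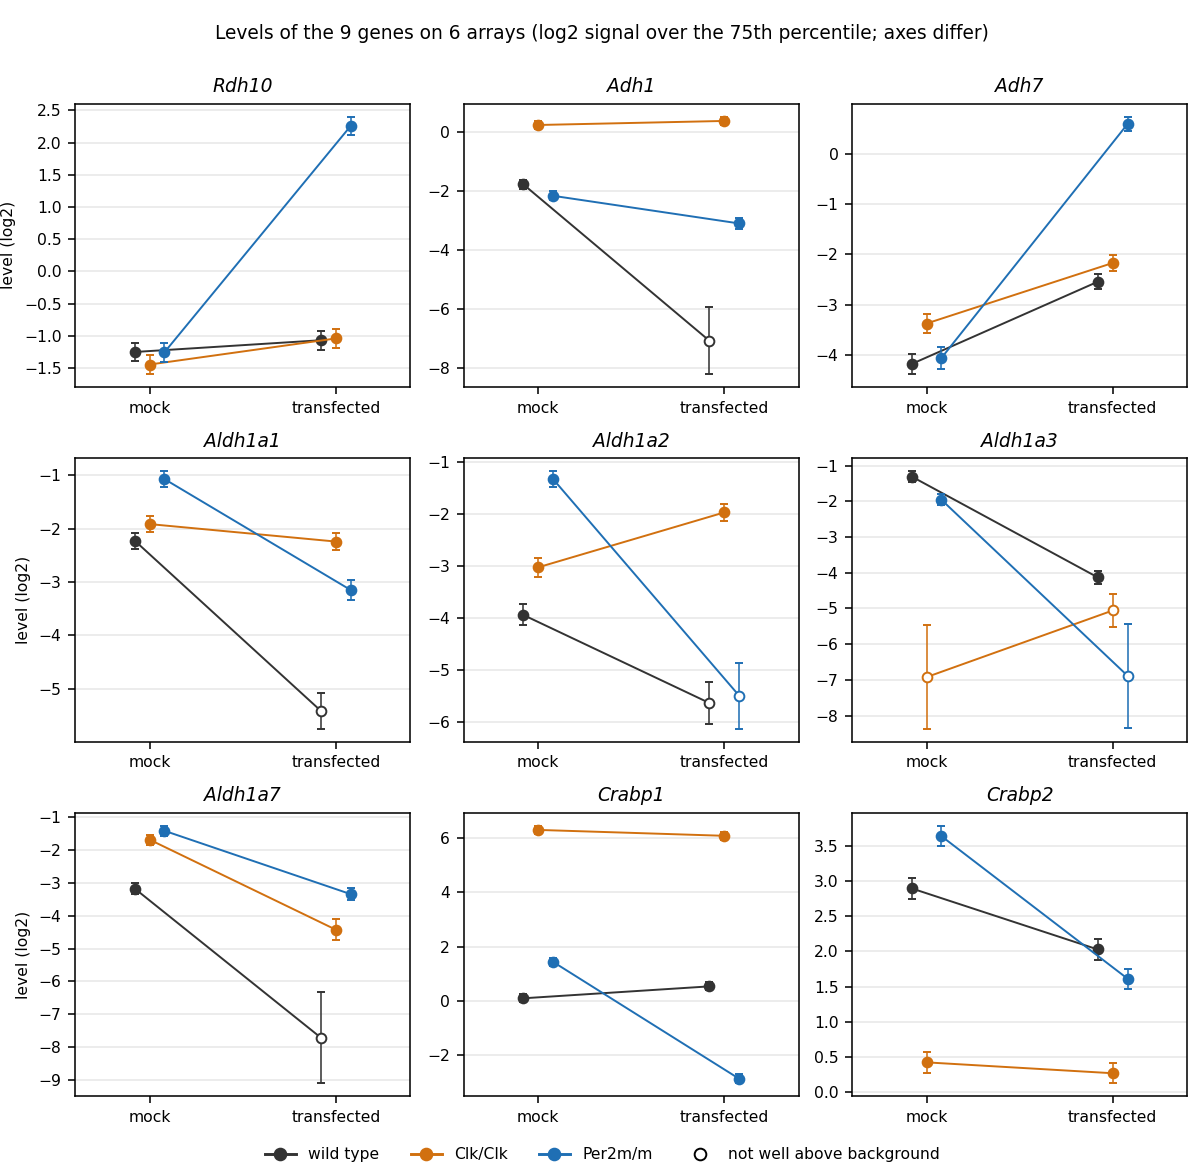
Levels of each of the 9 genes (vertical axis, log2 signal over the array's 75th percentile, with a separate scale in each panel) in mock and transfected cells (horizontal axis), 1 line per genotype. Points are single arrays, bars are the scanner's spot error, and open points were not well above background; Rdh10 and Adh7 reach 2.26 and 0.59 on the transfected Per2m/m array, while Aldh1a1 and Aldh1a7 are lower after transfection in each genotype.

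Of the retinaldehyde step, Aldh1a1, Aldh1a2 and Aldh1a3 were lower after transfection in wild type and Per2m/m cells, and in Clk/Clk cells no such shared direction was seen. Aldh1a1, a cytosolic retinaldehyde dehydrogenase used as a marker of progenitor cells, had levels of −2.22 (wild type), −1.91 (Clk/Clk) and −1.07 (Per2m/m) without the vector, and −5.42, −2.24 and −3.15 with it. The highest transfected array, that of Clk/Clk, was just below the lowest mock array, at −2.24 against −2.22, so the groups did not overlap but nearly touched. Aldh1a1 was 9.15-fold lower as measured after transfection in wild type cells and 4.23-fold lower in Per2m/m cells. The transfected wild type level of Aldh1a1 was not well above background, and the 9.15-fold is not a bound. In Clk/Clk cells the response was −0.33 ± 0.22, or 1.25-fold lower. Its limma coefficient was −1.87 ± 0.65 (adjusted p = 0.696, unadjusted p = 0.0478), and −0.93 ± 0.32 (adjusted p = 0.706) with normexp.

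Aldh1a7 was lower after transfection in all 3 genotypes. Its levels were −3.17 (wild type), −1.69 (Clk/Clk) and −1.42 (Per2m/m) without the vector, and −7.71, −4.43 and −3.34 with it. The 3 transfected arrays lay below the 3 mock arrays, and the transfected wild type array was not well above background. The decrease was at least 4.90-fold in wild type, 6.67-fold in Clk/Clk and 3.80-fold in Per2m/m cells. The Clk/Clk response of −2.74 ± 0.35 was the lowest of the 9 genes there and stood at rank 17226 from the top of 17289 genes. The limma coefficient for transfection was −3.07 ± 0.61 (adjusted p = 0.696, unadjusted p = 0.00817), which ranked 50 among all genes by p, and −3.64 ± 0.57 (adjusted p = 0.936) without the transfected Per2m/m array. With normexp it was −1.15 ± 0.20 (adjusted p = 0.706).

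Aldh1a1 and Aldh1a7, whose proximal upstream sequences are shown above, thus had the same sign in each genotype, but their sizes differed. In Clk/Clk cells Aldh1a7 was 6.67-fold lower where Aldh1a1 was 1.25-fold lower. In Per2m/m cells the decreases were 3.80-fold and 4.23-fold, a difference within the spot error.

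Aldh1a2, the main source of retinoic acid in embryonic mesoderm, differed in direction between genotypes. Its levels were −3.94 (wild type), −3.02 (Clk/Clk) and −1.32 (Per2m/m) without the vector, and −5.63, −1.97 and −5.49 with it. It was highest on the mock Per2m/m array, and was not well above background on the transfected wild type and Per2m/m arrays. After transfection Aldh1a2 was lower by at least 2.88-fold (wild type) and at least 9.62-fold (Per2m/m), and 2.08-fold higher in Clk/Clk cells. With normexp the wild type and Clk/Clk responses lost 2-fold size, at −0.54 and 0.57, and kept their directions.

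The mesothelial marker Wt1 was likewise not well above background on the transfected wild type and Per2m/m arrays, and had levels of −1.54, 0.70 and −1.20 on the mock wild type, Clk/Clk and Per2m/m arrays and −1.55 on the transfected Clk/Clk array. Of 8 mesothelial markers 5 were measured, and 2 to 4 were well above background on each array. Their summed signal was 2.27 to 10.8 on the mock and 3.38 to 34.3 on the transfected arrays, and most of the 34.3 was Msln, the mesothelial surface protein, at a level of 5.06 on the transfected Per2m/m array. The keratin Krt19 was lower with the vector, at 0.70 and −1.66 in wild type cells and 1.87 and −5.11 in Per2m/m cells, the last not well above background. Bnc1 was higher with the vector, at −4.21 and −1.10 in wild type cells and −5.64 and −0.26 in Per2m/m cells. Its mock Per2m/m level was not well above background. Msln was also higher, at −2.02 and 1.37 in wild type cells and 0.30 and 5.06 in Per2m/m cells. The median level of the list, mock before transfected, was −2.02 and −1.66 (wild type), 0.70 and −1.55 (Clk/Clk), and −1.20 and −4.61 (Per2m/m). The part of such cells in the Aldh1a2 values was not tested.

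Aldh1a3, the retinaldehyde dehydrogenase of epithelial and sensory tissue, was the gene measured on fewest arrays. Its levels were −1.30 (wild type), −6.92 (Clk/Clk) and −1.95 (Per2m/m) without the vector, and −4.13, −5.06 and −6.89 with it, and it was well above background on both wild type arrays and the mock Per2m/m array. With the vector it was 7.10-fold lower (wild type) and at least 6.22-fold lower (Per2m/m). No fold is given for Clk/Clk cells, where neither array was well above background.

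Crabp1 was higher and Crabp2 lower in both Clk/Clk arrays than in the other 4. Crabp1, which holds retinoic acid in the cytosol and is linked to its breakdown, had levels of 0.09 (wild type), 6.30 (Clk/Clk) and 1.44 (Per2m/m) without the vector, and 0.53, 6.08 and −2.87 with it. Both Clk/Clk arrays were far above the other 4, and the transfected Per2m/m array was the lowest. Over the 6 arrays Crabp1 spanned 576-fold, with all 6 values well above background. Its processed signal was 29904 on the mock Clk/Clk array, against 524 on the mock wild type array. The responses were 0.44 ± 0.20, −0.22 ± 0.20 and −4.31 ± 0.22, so only in Per2m/m cells was there a 2-fold difference, of 19.8-fold.

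Crabp2, which carries retinoic acid to its receptors in the nucleus, was by contrast lowest in Clk/Clk cells. Its levels were 2.89 (wild type), 0.42 (Clk/Clk) and 3.64 (Per2m/m) without the vector, and 2.03, 0.27 and 1.61 with it. The mock Per2m/m array was the highest. The responses were −0.87 ± 0.20, −0.15 ± 0.20 and −2.03 ± 0.20, the last 4.07-fold lower. A probe listed under another name has the same 60 bases as the Crabp2 probe. Its levels differed from those of the Crabp2 probe by 0.00174 to 0.0437 over the 6 arrays, and its responses were −0.88, −0.11 and −1.95.

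**Figure D2:**
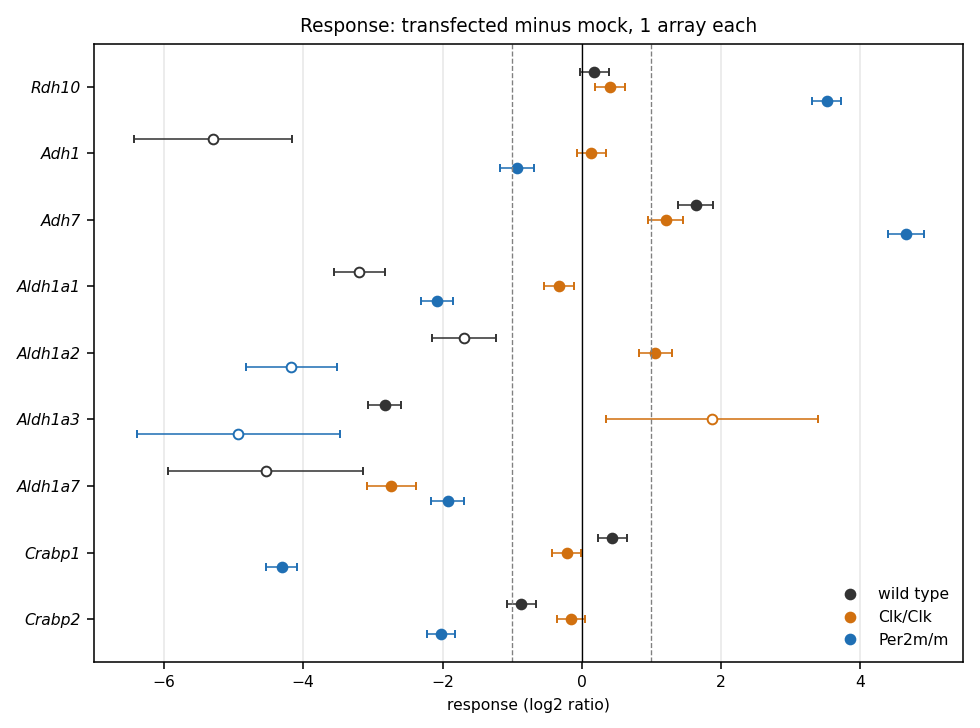
Response (horizontal axis, log2, transfected over mock) of the 9 genes in each genotype, with the scanner's spot error as bars and 2-fold as dashed lines. Open points had at least 1 array not well above background; Adh7 is beyond 2-fold to the right in each genotype and Aldh1a7 to the left.

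Counted over the 9 genes, 5 were at least 2-fold lower and 1 higher after transfection in wild type cells, where 11.9% of all genes were lower and 7.44% higher (19.4% in either direction). In Clk/Clk cells 1 was lower and 2 were higher, against 4.18% and 3.74% (7.92% in either direction). In Per2m/m cells 6 were lower and 2 higher, against 20.6% and 18.6% (39.3% in either direction). The median response of the 9 genes was −1.70 (wild type), 0.14 (Clk/Clk) and −2.03 (Per2m/m), against −0.01, 0.02 and 0.12 over all genes. With each array scaled to its median instead, the background became 8.56% lower and 14.3% higher (wild type) and 17.9% lower and 25.9% higher (Per2m/m), the all-gene medians were 0.31 and 0.40, and the counts of the 9 genes were the same. With normexp the counts were 4 lower and 0 higher (wild type), 1 and 0 (Clk/Clk) and 6 and 2 (Per2m/m). The shares of all genes were then 5.86% lower and 4.99% higher (wild type), 1.45% and 1.27% (Clk/Clk) and 13.4% and 13.7% (Per2m/m). No spread between cultures stands behind these counts, and in wild type the decreases of Adh1, Aldh1a2 and Aldh1a7 are bounds. That of Aldh1a1 rests on a level not well above background and is not a bound.

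The bounds hold on the scale used here, and normexp gave smaller differences for dim probes. The wild type responses of Adh1, Aldh1a1, Aldh1a3 and Aldh1a7 were −1.74, −1.40, −1.72 and −1.23 with it. In Per2m/m cells Aldh1a1, Aldh1a2, Aldh1a3 and Aldh1a7 were at −1.23, −1.56, −1.41 and −1.07, and Aldh1a7 was at −1.16 in Clk/Clk cells. The brighter Rdh10, Crabp1 and Crabp2 had Per2m/m responses of 3.15, −3.40 and −2.04 with normexp.

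All 9 genes were well above background on the mock wild type and mock Per2m/m arrays, 8 on each Clk/Clk array, 5 on the transfected wild type and 7 on the transfected Per2m/m array. Of the genes tested, 90.5% and 88.5% were well above background on the mock and transfected wild type arrays, and 88.1% and 80.2% on those of Per2m/m. Of 11 fibroblast markers, Lum and Fap were not well above background on those 2 transfected arrays and the other 9 were, with a summed signal of 1338 and 1539 there against 1191 to 1675 on the other arrays. The sum weighs the brightest markers most. The median level of the list fell from 6.22 to 3.53 with the vector in wild type and from 5.16 to 1.57 in Per2m/m cells. In Clk/Clk cells it was 7.14 and 6.62. Of 10 macrophage markers, 5 and 6 were well above background on the transfected wild type and Per2m/m arrays. Their sums were 23.6 and 17.7 there, against 46.4 to 60.8 on the other arrays. Each sum was mostly that of Itgam, at levels of 4.28 and 3.51 on those 2 arrays and 5.22 to 5.77 on the others. The sum was highest on the mock Clk/Clk array, where Adgre1, Lyz2, Tyrobp and Fcgr3 were not well above background. Cd68, Csf1r, Cd14 and Itgam were well above background on all 6 arrays. The part of a change in cell types in these decreases was not tested.

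For the transfection coefficient, 0 of the 9 genes passed the adjusted threshold in limma (adjusted p of 0.696 to 0.698), as did 0 of 17293 genes. At an unadjusted p under 0.05 there were 3 of 9, namely Adh7, Aldh1a1 and Aldh1a7, against 4.63% of all genes. Mock and transfected arrays did not overlap for 4 of the 9 genes, namely Rdh10, Adh7, Aldh1a1 and Aldh1a7, against 11% of all genes. For Rdh10 the gap was within the spot error, and for Aldh1a1 the groups nearly touched. All 9 genes varied more over the 6 arrays than the median gene, with a median SD of 1.79 against 0.56. For Adh1 and the Aldh1a genes these SDs include levels not well above background. Without such levels the range of Adh1 was 3.47, against 7.43 with them, and that of Aldh1a7 was 3.01, against 6.29. Rdh10, Adh7, Crabp1 and Crabp2 were well above background on all 6 arrays.

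**Figure D3:**
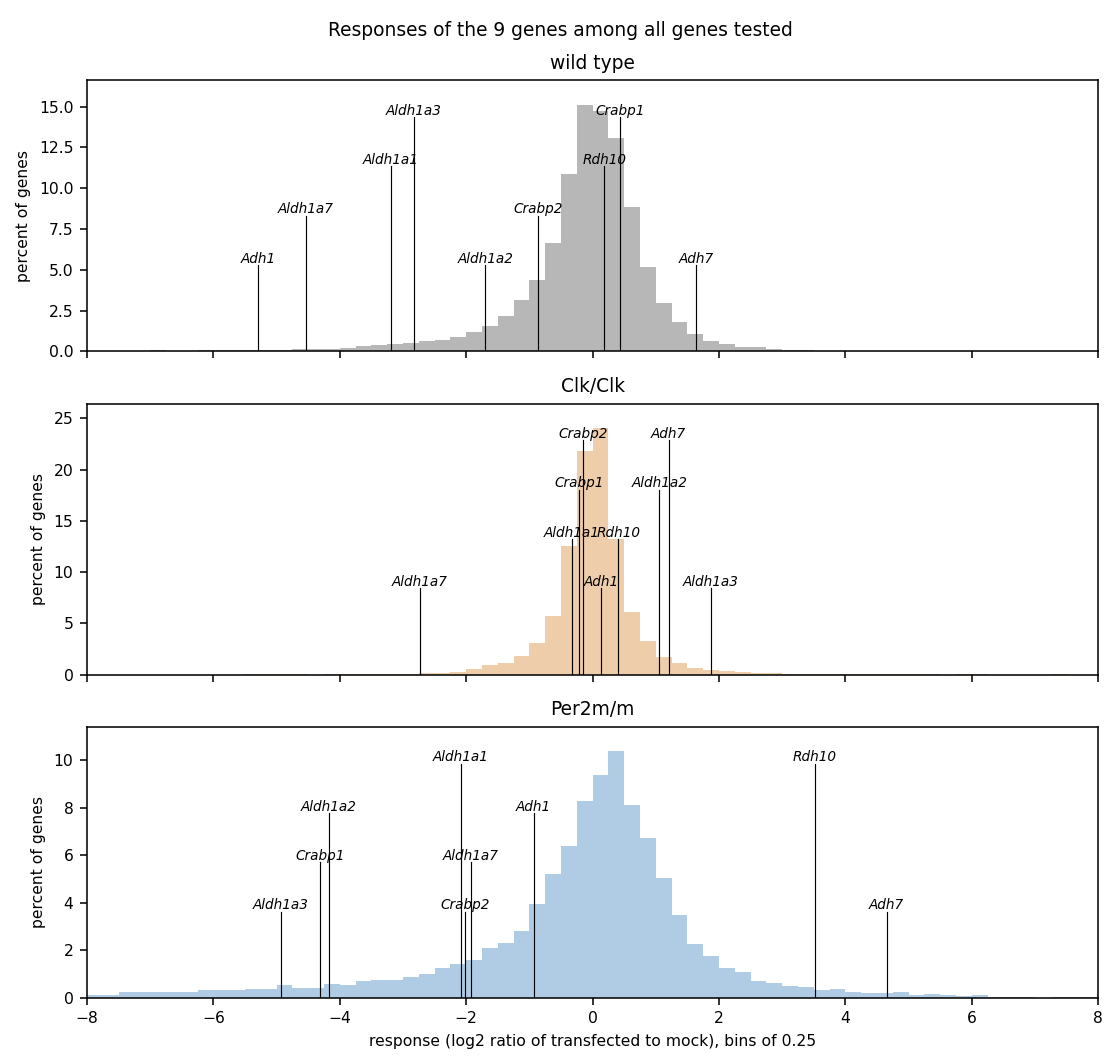
Distribution of the response over all genes tested (bars, percent of genes in bins of 0.25 in log2) in each genotype, with the 9 genes marked by lines at their own response; line heights only separate the names. The bars spread most for Per2m/m (SD 2.07) and least for Clk/Clk (SD 0.69), so that a response of −2.74 lies at the edge in Clk/Clk cells while −2.03 lies inside the left shoulder in Per2m/m cells.

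Comparing genotypes in mock cells, Clk/Clk cells differed from wild type mainly in Crabp1, Crabp2, Adh1 and Aldh1a3. Crabp1 was 73.8-fold higher (6.20 ± 0.20), at rank 40 of 17293 genes, and Adh1 was 4.01-fold higher. Crabp2 was 5.55-fold lower, and Aldh1a3 was at least 9.99-fold lower. Aldh1a7 was 2.80-fold higher, and fell just below 2-fold with normexp, at 0.97. In all, 3 genes were at least 2-fold higher and 2 lower, against 10.5% and 10.5% of all genes (21% in either direction). Scaling to the array median left these counts the same, and 7.52% of all genes were higher and 18.3% lower.

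In mock Per2m/m cells 3 of the 4 Aldh1a genes and Crabp1 were at least 2-fold higher than in mock wild type cells. Aldh1a2 was 6.13-fold higher (2.62 ± 0.25), Aldh1a7 3.38-fold, Crabp1 2.54-fold and Aldh1a1 2.23-fold, and 0 of the 9 genes were 2-fold lower, against 4.39% of genes higher and 4.49% lower (8.88% in either direction). With normexp Aldh1a1 was below 2-fold, at 0.88. Rdh10 and Adh7, which were highest on the transfected Per2m/m array, differed from mock wild type by −0.00 ± 0.21 and 0.12 ± 0.29. The difference of Aldh1a2 was 1.48 with normexp and that of Aldh1a7 was smaller but still at least 2-fold, and that of Aldh1a3 between mock Clk/Clk and wild type cells was −1.85. Both mock comparisons share the mock wild type array.

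In transfected cells, Clk/Clk cells had 5 genes at least 2-fold higher than wild type and 1 lower, against 13.8% and 11% of all genes (24.8% in either direction). Adh1 was at least 56.9-fold higher, Crabp1 46.8-fold, Aldh1a2 at least 11.3-fold and Aldh1a7 at least 2.06-fold. Aldh1a1 was 9.04-fold higher as measured, which is not a bound, and Crabp2 was 3.38-fold lower. With each array scaled to its median, 8.42% of all genes were higher and 36.9% lower in this comparison, and Aldh1a3 was called as a 2nd lower gene, at −1.57. It was also called with quantile normalization (−1.71) and the authors' value table (−1.70), where 12% and 12.1% of all genes were lower. With normexp the Aldh1a3 difference had the other sign, at 0.22.

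Transfected Per2m/m cells had 5 genes higher than transfected wild type cells and 2 lower, against 14.7% and 16.2% of all genes (30.9% in either direction). Rdh10 was 10.0-fold higher, Adh7 8.80-fold, Adh1 at least 5.15-fold and Aldh1a7 at least 4.35-fold. Aldh1a1 was 4.81-fold higher as measured, which is not a bound. Crabp1 was 10.6-fold lower, and Aldh1a3 at least 1.38-fold lower, with a measured difference of −2.76 ± 1.46 and −0.17 under normexp. With normexp the differences from wild type of Adh1, Aldh1a1 and Aldh1a7 were 1.12, 1.05 and 1.25 in Per2m/m cells and 3.45, 1.58 and 1.04 in Clk/Clk cells, where that of Aldh1a2 was 1.66. Both comparisons of transfected cells share the transfected wild type array, on which 4 of the 9 genes were not well above background.

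Fitted over both transfection states, the Clk/Clk coefficient was 5.88 ± 1.35 for Crabp1 (limma, adjusted p = 0.415), 4.72 ± 1.50 for Adh1 (0.515), 2.39 ± 0.74 for Aldh1a7 (0.510) and −2.11 ± 0.57 for Crabp2 (0.472). These were the 4 of 9 genes with an unadjusted p under 0.05, against 9.25% of all genes, and 0 of 9 passed the adjusted threshold. Both Clk/Clk arrays lay above the other 4 for Adh1 and Crabp1 (14.9% of all genes) and below them for Crabp2 (19.3%). With normexp the Clk/Clk coefficients of Adh1 and Aldh1a7 were 2.52 ± 0.51 and 1.01 ± 0.24, and those of Crabp1 and Crabp2 were 5.69 ± 0.98 and −2.02 ± 0.51. For Per2m/m the coefficient of Aldh1a7 was 3.06 ± 0.74 (adjusted p = 0.935), and it was the 1 gene of 9 with an unadjusted p under 0.05, against 2.23% of all genes. With normexp it was 1.18 ± 0.24. The Per2m/m coefficient of Crabp1 was −1.03 ± 1.35 and turned to 1.18 ± 0.45 without the transfected Per2m/m array.

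**Figure D4:**
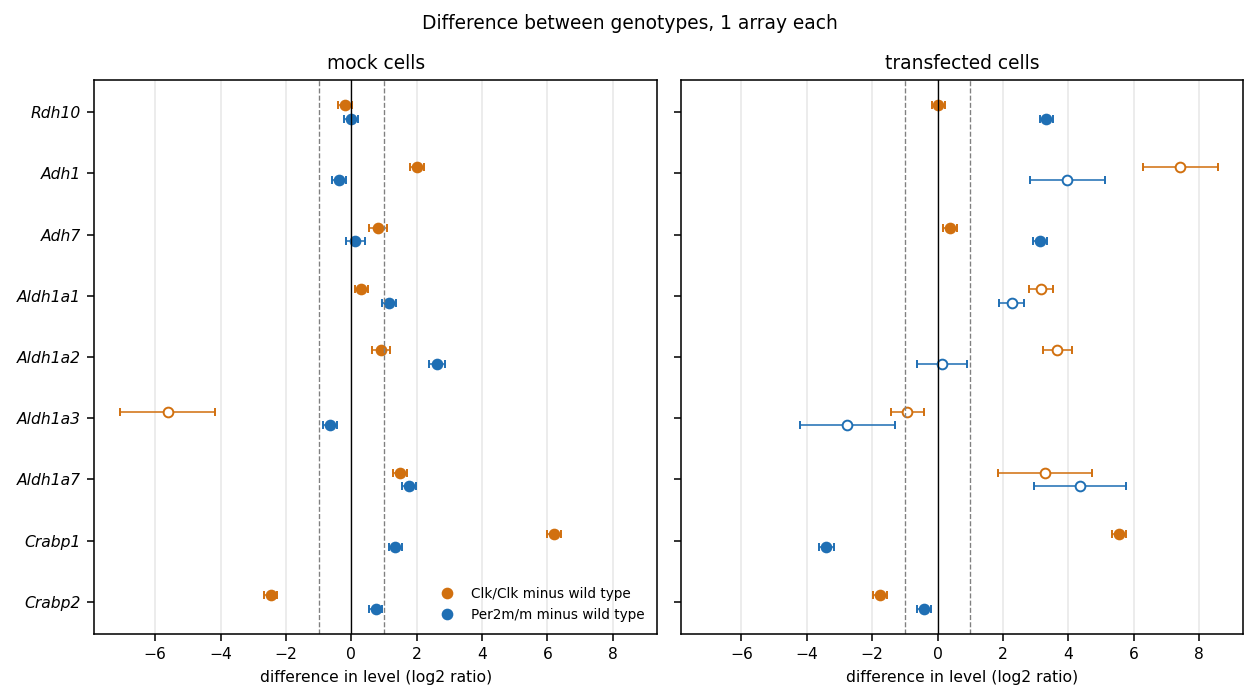
Difference in level (horizontal axis, log2 ratio of 1 array to 1 array) of Clk/Clk and Per2m/m cells from wild type cells for the 9 genes, in mock (left) and transfected cells (right), with spot error bars and dashed lines at 2-fold. Open points had at least 1 array not well above background; Crabp1 is at 6.20 in mock and 5.55 in transfected Clk/Clk cells, and at 1.34 and −3.40 in Per2m/m cells.

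The size of the response differed between genotypes for several of the genes, which could not be tested with 1 array per group. Against wild type, the response in Per2m/m cells was higher by 3.33 ± 0.29 for Rdh10 and 3.02 ± 0.36 for Adh7, and differed by −4.75 ± 0.30 for Crabp1 and −1.16 ± 0.29 for Crabp2. These differences were larger than the spot error, and the spread between cultures is unknown. For Crabp2 and Rdh10 the Clk/Clk response differed from that of wild type by 0.71 ± 0.29 and 0.22 ± 0.29.

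Other genes of the retinoid pathway were read from a list of 47 genes, of which 38 were tested. In Clk/Clk cells 1 was at least 2-fold higher after transfection and 1 lower, in wild type cells 2 and 5, and in Per2m/m cells 9 and 9, with median responses of −0.05, −0.09 and −0.10. Over all genes 7.92%, 19.4% and 39.3% were called in either direction in the same order, so the shares of the list lay near the background. Of the 38 genes, 0 passed the adjusted limma threshold for transfection and 1, the dehydrogenase Dhrs9, had an unadjusted p under 0.05, against 4.63% of all genes.

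Of 12 measured receptor targets, 7 were called as at least 2-fold lower and 1 higher in Per2m/m cells, where 20.6% and 18.6% of all genes were, with a median of −1.31 against 0.12 over all genes. The 7 include Stra6, which was not well above background with the vector and is bounded only at 1.64-fold lower. In wild type cells 4 were lower and 1 higher, against 11.9% and 7.44% of all genes. For Clk/Clk the counts were 0 and 0, against 4.18% and 3.74%. Dhrs3, a retinaldehyde reductase induced by retinoic acid, had levels of 4.64 (wild type), 3.19 (Clk/Clk) and 4.09 (Per2m/m) without the vector, and 2.56, 3.04 and −2.75 with it. Its response was −2.08, −0.14 and −6.84 in the same order. Rarb, a receptor that is itself a target, had responses of −1.44 (wild type) and 0.29 (Clk/Clk), and in Per2m/m cells it was at least 11.1-fold lower. Another Rarb probe gave −1.87, 0.13 and −3.59.

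Hic1, a transcriptional repressor, had responses of −0.10, −0.35 and −5.39. Rarres2, which encodes the chemokine chemerin, had responses of −2.59 (wild type) and 0.50 (Clk/Clk), and in Per2m/m cells it was at least 5.19-fold lower. The homeobox gene Cdx1 was higher in Per2m/m cells, at 2.47.

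Stra6, the membrane receptor for retinol uptake and also a target, was at least 2.23-fold higher (wild type), had a response of −0.89 (Clk/Clk), and was at least 1.64-fold lower (Per2m/m). Of the carriers in Per2m/m cells, Rbp4, the plasma retinol carrier, was at least 9.34-fold lower and Rbp2, the intestinal one, at least 2.97-fold higher. In wild type cells the Rbp4 response was −0.27, and Rbp2 was not well above background. Cyp26b1, which breaks retinoic acid down, had responses of −0.07 (wild type) and 3.46 (Per2m/m), with levels of 0.48, 0.41, 0.92 and 4.38 on the wild type and Per2m/m arrays, mock before transfected. In mock Clk/Clk cells it was not well above background. Xdh, xanthine dehydrogenase, which can also oxidise retinaldehyde, went with the vector from a level of −4.78 to 2.92 in Per2m/m cells, a response of 7.71, against 0.70 (wild type) and −0.73 (Clk/Clk).

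**Figure D5:**
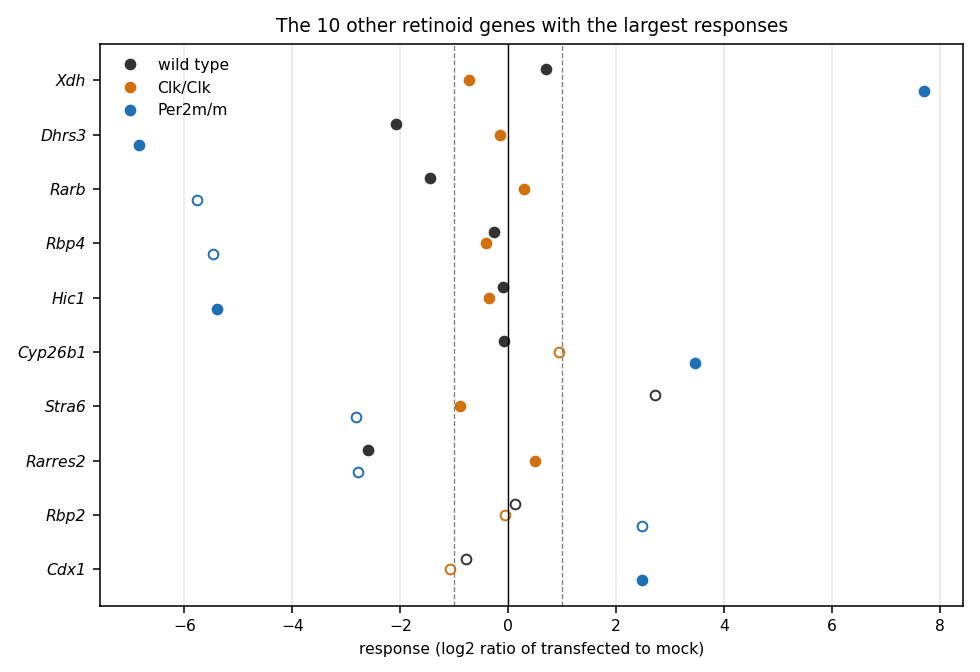
Response (horizontal axis, log2, transfected over mock) of the 10 genes of the wider retinoid list with the largest 2-fold responses, by genotype, with dashed lines at 2-fold. Open points had at least 1 array not well above background; the Per2m/m points run from −6.84 for Dhrs3 to 7.71 for Xdh.

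The genes most like each member in level over the 6 arrays were sought among 3067 genes well above background on at least 3 arrays with an SD of at least 1. Rdh10 was followed most closely by Cldn9, Atp2a3 and Cbfa2t3 (Pearson r of 0.994, 0.993 and 0.991), all high on the transfected Per2m/m array. Adh7 was followed by Soat2, Eps8l2 and Dbf4 (0.989, 0.986 and 0.984), and Adh1 by Mn1, Mocos and Plekhs1 (0.994, 0.985 and 0.980). Crabp1 was followed by Rbm47, 6430706H07Rik and Gabra4 (0.994, 0.987 and 0.986), and Crabp2 by 2200002D01Rik, Dnajb4 and Inpp5d (0.993, 0.992 and 0.986).

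Among the ALDH1A genes, Aldh1a1 was closest to Gm11627, Rab44 and Gm53 (0.971, 0.969 and 0.966), Aldh1a2 to Nuak1, Kctd12b and Flt4 (0.980, 0.964 and 0.962), Aldh1a3 to Plcxd2, Itgb1 and Dusp27 (0.999, 0.988 and 0.985), and Aldh1a7 to Wfdc17, Ly6f and H19 (0.982, 0.982 and 0.972). H19, an imprinted RNA, had levels of 2.51 (wild type), 3.27 (Clk/Clk) and 2.82 (Per2m/m) without the vector, and −4.01, −0.39 and 0.65 with it. These correlations rest on 6 arrays that differ in genotype and vector together. Aldh1a3 was well above background on 3 of them, Aldh1a2 on 4, and Adh1, Aldh1a1 and Aldh1a7 on 5. The correlations of these genes thus include levels not well above background. Between 4 and 84 genes had an r of at least 0.95 with any 1 member.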

How the data were processed

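The deposited scanner files give a linear intensity for every spot. Per the file headers they come from Agilent Feature Extraction 10.7.1.1, with a probe design on mm9, while the submitters' processing notes name version 9.5.1.1. The authors' deposited value table holds linear intensity with a median of 23.8 in each column, and the sources used here do not give its normalization. Flags and errors of spots were used as deposited.

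Outlier and control spots were left out, spots of a probe were averaged, and the processed signal was divided by its 75th percentile on that array and put on a log2 scale. Probes were named through RefSeq accessions (27229), symbols (3586) or synonyms (565) of assembly GRCm38.p6, or by the file's name (1147), leaving 23154 unnamed. Each gene was read by its probe with the highest mean level among those well above background on at least 1 array. Limma 3.58.1 in R 4.3.3 fitted genotype plus transfection on all 6 arrays (lmFit, eBayes, two-sided, Benjamini-Hochberg over all genes, threshold 0.05), with 2 residual degrees of freedom shared by array noise and genotype-specific response, and was tested on simulated data. Its p-values measure only the spread between these 6 samples. Python 3.11.15 was used otherwise. The genes and lists were chosen with earlier results of these data known. The named genes were all members, at most 10 list genes by size of a 2-fold response, and 3 genes per member by likeness. Protein sequences were planned and not used here. All arrays lay on 1 slide.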

Additional observations from a re-analysis of the deposited data

Results flagged for a closer look

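Aldh1a2 had 2-fold responses of opposite direction in different genotypes, which was not tested with 1 array per group. The Clk/Clk response of 1.06 exceeded that of wild type, −1.70, by 2.75, and the Per2m/m response of −4.17 lay below that of Clk/Clk by −5.23. Aldh1a2 was not well above background on the transfected wild type and Per2m/m arrays, so these sizes rest on unmeasured signal there. As bounds, it was at least 2.88-fold and 9.62-fold lower in those genotypes and 2.08-fold higher in Clk/Clk cells, and with normexp the responses were −0.54, −1.56 and 0.57. Of 11 fibroblast markers 9 were well above background on those 2 arrays, all but Lum and Fap, and 11 on both Clk/Clk arrays. Their part in the result was not tested.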

How the results depend on the processing

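Of 343 single differences recomputed under other scalings, background corrections and filters, 253 moved by no more than the spot error and 90 by more. None that was at least 2-fold changed direction under those alternatives. Settings that only changed the filter on dim probes, 63 and 28 of the 343, reuse the same values and could not move. With normexp 38 moved by more than the spot error and 25 did not, and with median scaling 27 and 36. These counts were 13 and 50 with quantile normalization and 12 and 51 with the authors' value table. Below 2-fold, Rdh10, Adh7 and Aldh1a1 differed in sign between scalings in comparisons of genotypes, as did Aldh1a3 in transfected Clk/Clk against wild type cells with normexp. With normexp 1 of the 9 genes, Aldh1a7, was at least 2-fold apart in Clk/Clk cells, against 3. Restricting to probes well above background on all 6 arrays left 4 of the 9 genes, namely Rdh10, Adh7, Crabp1 and Crabp2, with unchanged values. The share of all genes called under this filter was not taken, so no counts are given for it. In limma 0 genes passed for each coefficient under every alternative run. Some coefficients that did not pass turned sign: Rdh10 for Clk/Clk from −0.08 to 0.017 with normexp, and without the transfected Per2m/m array Aldh1a3 and Crabp1 for Per2m/m from −1.71 and −1.03 to 0.52 and 1.18 and Crabp1 for transfection from −1.36 to 0.11; the cause was not tested for normexp, and the others lack that array. Mock and transfected arrays are paired by genotype in the limma fit, and no further pairing by replicate was made because the labels give no replicate numbers. No member had a second probe under its own name, so that alternative gave no value. In the 250 bases before the start alone, the Adh1 E-box and the Adh7 xenobiotic element were not found. The number of arrays limits the precision.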
